A study of Mus musculus with 2 samples.

Results

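The Mir29 family of the mouse comprises 4 microRNA genes, Mir29a, Mir29b-1, Mir29b-2 and Mir29c, and its members were chosen by symbol: rows of the deposited count files whose Ensembl gene identifier carries one of these names in the GENCODE annotation. All 4 were counted, among 1973 counted genes in all. Short RNAs of fewer than 30 nucleotides had been sequenced from liver tissue of B6NCrl mice taken at embryonic day 11.5. There were 2 libraries, each made from pooled embryos of mixed sex, 109 of them in replicate 1 and an unstated number in replicate 2. The labels give the embryos as healthy and name no treatment and no mutant allele, and both libraries belong to 1 group, so the data allow levels and a comparison of the pools but no comparison of conditions or ages.

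MicroRNAs are short RNAs that are cut from a hairpin precursor and pair with messenger RNAs, mainly through the seed, the bases near their 5′ end, to lower their translation and stability. The miR-29 microRNAs are known as repressors of extracellular matrix genes, above all of collagens, and of DNA methyltransferases. In the liver they are known from hepatic stellate cells, the matrix-producing cells, where they fall in fibrosis, and in several tissues they rise as development goes on. The 4 genes lie in pairs at a pair of loci, and each pair is thought to be transcribed together.

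The mature sequences show what the family shares and what sets its members apart. They are given 5′ to 3′ with the seed, bases 2 to 8, in capitals, from RefSeq (GRCm38.p6), where all 4 members were matched.
mmu-miR-29a-3p: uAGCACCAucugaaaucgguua
mmu-miR-29b-3p: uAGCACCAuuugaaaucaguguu
mmu-miR-29c-3p: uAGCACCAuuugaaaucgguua
All 3 sequences carry the same seed. Among 1738 mature entries of the RefSeq table, 4 held this seed, and 0 of them came from a gene outside the family. With positions counted from 1 at the 5′ end, miR-29a-3p and miR-29c-3p differed over 22 bases by the single substitution C10U, and miR-29c-3p and miR-29b-3p by G18A, U21G and A22U. The sequence of miR-29b-3p is the same for Mir29b-1 and Mir29b-2, so a read of it cannot be placed at either gene.

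The hairpins of the Mir29b genes show how far this identity reaches, with their longest shared run in capitals.
Mir29b-1 hairpin: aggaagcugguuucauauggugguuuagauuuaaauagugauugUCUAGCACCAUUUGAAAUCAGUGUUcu
Mir29b-2 hairpin: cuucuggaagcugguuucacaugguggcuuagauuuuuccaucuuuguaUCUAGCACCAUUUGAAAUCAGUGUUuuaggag
The shared run was 25 bases long and held the whole of the mature 3′ arm. The 5′ arms of these hairpins are distinct, and the bases that differ within them are in capitals here.
mmu-miR-29b-1-5p: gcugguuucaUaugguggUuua
mmu-miR-29b-2-5p: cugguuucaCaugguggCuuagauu
Over 21 aligned bases the 5′ arms differed by U11C and U19C, counted from the 5′ end of the Mir29b-1 arm. Elsewhere in the family the longest run shared by Mir29a and Mir29c was 14 bases, Mir29a shared 11 bases with each Mir29b gene, and Mir29c shared 22 bases with Mir29b-1 and 19 bases with Mir29b-2. Mir29a was thus the only member to share no run of at least 20 bases with another hairpin of the RefSeq table.

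Mir29a (ENSMUSG00000065610.1) lies on the minus strand at chr6:31062660-31062747 of mm10, with no other gene of GENCODE M21 over it. Mir29b-1 (ENSMUSG00000065604.1) lies 275 bases away at chr6:31063023-31063093, on the same strand, and overlaps an exon of the long noncoding RNA gene Gm27019 by 2 bases. Mir29b-2 (ENSMUSG00000065412.2) lies on the plus strand at chr1:195037040-195037120, and Mir29c (ENSMUSG00000065548.1) follows 426 bases further on at chr1:195037547-195037634. Both chromosome 1 genes lie within an exon of the noncoding transcript A330023F24Rik on their own strand and within an exon of Cd46, which encodes a complement regulator, on the opposite strand.

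On the strand of the gene, the assigned microRNA reads numbered 3344673 for replicate 1 and 1584499 for replicate 2. Levels are given as CPM, counts per 1000000 of these assigned counts. A small RNA read covers a whole microRNA, so CPM was not divided by gene length. A count of 0 would allow up to 3 counts, or 0.897 CPM in replicate 1 and 1.89 CPM in replicate 2. Reads that map to several places, 22.0% and 22.6% of all reads in replicates 1 and 2, were assigned to no gene. Markers of the labelled tissue were present: the hepatocyte gene Mir122 stood at rank 4, and 3.64 ± 0.235% of the counts came from the hepatocyte list (SD, n = 2). Most of that share was Mir122, with a mean of 32583 CPM against 36432 CPM for the list of 6 genes. In replicates 1 and 2, Mir802 of that list had only 9 and 3 counts and Mir194-1 48 and 8. Intervals below are 95% exact Clopper-Pearson binomial intervals and cover counting error only.

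Mir29a was the leading member, Mir29c came next, and the Mir29b genes were low. Mir29a had 2351 counts in replicate 1 and 1360 in replicate 2. These counts gave 703 CPM (interval 675 to 732) and 858 CPM (813 to 905), and a mean of 781 ± 110 CPM (SD, n = 2). Replicate 2 was the higher of the pools for this gene, and the intervals did not overlap. Mir29c, whose mature 3′ arm differs from that of Mir29a at 1 base, had 394 and 301 counts in replicates 1 and 2. Its level was 118 CPM (interval 106 to 130) and 190 CPM (169 to 213), with a mean of 154 ± 51.0 CPM (SD, n = 2). Mir29c was also higher in replicate 2, without overlap of the intervals.

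Mir29b-1 had 66 and 22 counts in replicates 1 and 2, and its level was 19.7 CPM (interval 15.3 to 25.1) and 13.9 CPM (8.70 to 21.02), with a mean of 16.8 ± 4.14 CPM (SD, n = 2). The intervals of the pools overlapped. Mir29b-2 had 18 counts in replicate 1 and 2 in replicate 2, which gave 5.38 CPM (3.19 to 8.51) and 1.26 CPM (0.153 to 4.56) and a mean of 3.32 ± 2.91 CPM (SD, n = 2). With 2 reads in replicate 2 its level there is known only within a wide interval, and its mean rests mostly on replicate 1. Reads of the mature miR-29b-3p, which both genes encode, cannot be part of these counts where they match both copies equally, so the low level of the Mir29b genes is a level of uniquely placed reads and not of the microRNA.

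**Figure D1:**
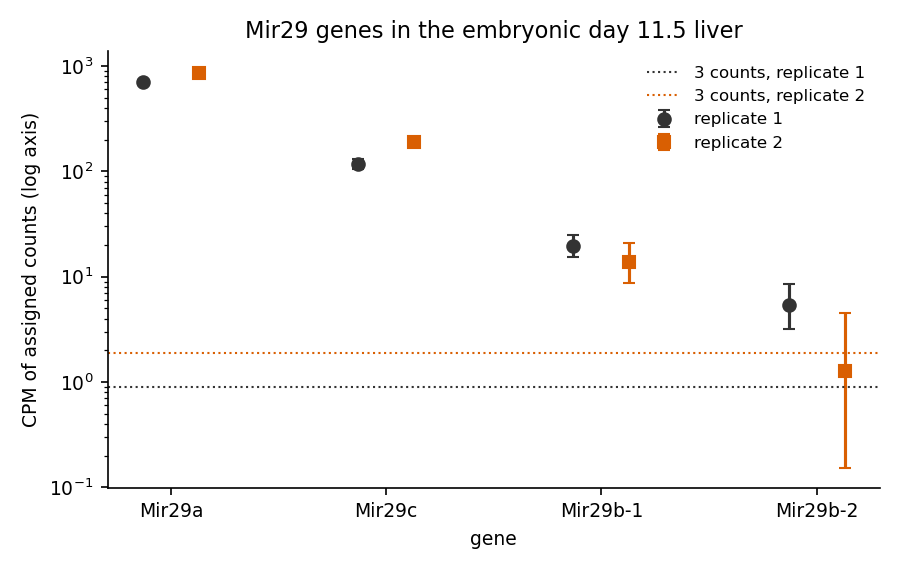
CPM of assigned counts (log axis) of the 4 Mir29 genes in replicate 1 (circles) and replicate 2 (squares), with 95% exact binomial intervals as bars and dotted lines at the CPM of 3 counts in each library. Mir29a sits at 703 and 858 CPM and Mir29c at 118 and 190 CPM, while Mir29b-2 has 5.38 and 1.26 CPM, with a wide interval in replicate 2.

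The order Mir29a, Mir29c, Mir29b-1, Mir29b-2 was the same in both pools. Counting intervals of neighbouring members did not overlap in either library. Over the pools, Mir29a and Mir29c and also Mir29c and Mir29b-1 lay further apart than the sum of their SDs, and the same held for Mir29b-1 and Mir29b-2. Mir29a exceeded Mir29c 5.97-fold in replicate 1 (interval 5.36 to 6.66) and 4.52-fold in replicate 2 (3.99 to 5.14). Mir29b-1 exceeded Mir29b-2 3.67-fold in replicate 1 (2.15 to 6.56) and 11.0-fold in replicate 2 (2.70 to 96.5), the second ratio resting on 2 counts of Mir29b-2.

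Within the family, Mir29a made up 83.1% of the counts in replicate 1 (interval 81.7 to 84.5) and 80.7% in replicate 2 (78.7 to 82.6). Mir29c made up 13.9% (12.7 to 15.3) and 17.9% (16.1 to 19.8), so its share was higher in replicate 2 beyond counting error. Both Mir29b genes together held 2.97% and 1.42% of the family's counts. By locus, the chromosome 6 pair held 83.7 ± 2.42% of the family's counts and the chromosome 1 pair 16.3 ± 2.42% (SD, n = 2). The share of the chromosome 6 pair was 85.4% in replicate 1 and 82.0% in replicate 2. All these shares are of uniquely placed reads. Reads of miR-29b-3p that match both Mir29b genes equally are in none of them, so the shares are not those of the microRNAs.

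The members of each locus, although neighbours, differed widely in assigned counts. Mir29a exceeded Mir29b-1 35.6-fold in replicate 1 (interval 27.9 to 46.2) and 61.8-fold in replicate 2 (40.7 to 99.0). Mir29c exceeded Mir29b-2 21.9-fold in replicate 1 (13.7 to 37.3) and 150.5-fold in replicate 2 (41.3 to 1248), the latter again on 2 counts. Such gaps were common among neighbouring microRNA genes in these files. Of 91 pairs on 1 strand at most 1000 bases apart, with at least 100 counts for the higher gene in each library, 50 (54.9%) differed at least 10-fold in both libraries, with 0.5 added to each count. The median fold of these pairs was 16.3 in replicate 1 and 13.3 in replicate 2. A gap larger in both libraries than that of Mir29a and Mir29b-1 was found for 28 pairs, and one larger than that of Mir29b-2 and Mir29c for 24 pairs. In some of these pairs the lower gene had fewer than 10 counts in at least 1 library. Mir467d and Mir466, at 1235-fold in replicate 1 and 3105-fold in replicate 2, were such a pair. All these gaps are of uniquely placed reads.

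The 4 members together held 846 CPM in replicate 1 (interval 815 to 878) and 1063 CPM in replicate 2 (1013 to 1115). Their mean was 955 ± 154 CPM (SD, n = 2) or 0.0955 ± 0.0154% of the counts. This sum is of uniquely placed reads and leaves out reads of miR-29b-3p that match both Mir29b genes equally. Genes with 10 or more counts in each library, here called detected, numbered 347 of 1973 (17.6%). Of the 4 members, 3 were detected and Mir29b-2 was not. By mean CPM, Mir29a ranked 131, Mir29c 201, Mir29b-1 298 and Mir29b-2 394. Mir29a lay at 2.95 times the median of detected genes, which was 264 CPM, and above 216 of them. Mir29c lay at 0.582 times that median and above 146 detected genes, while Mir29b-1 was above 49.

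**Figure D2:**
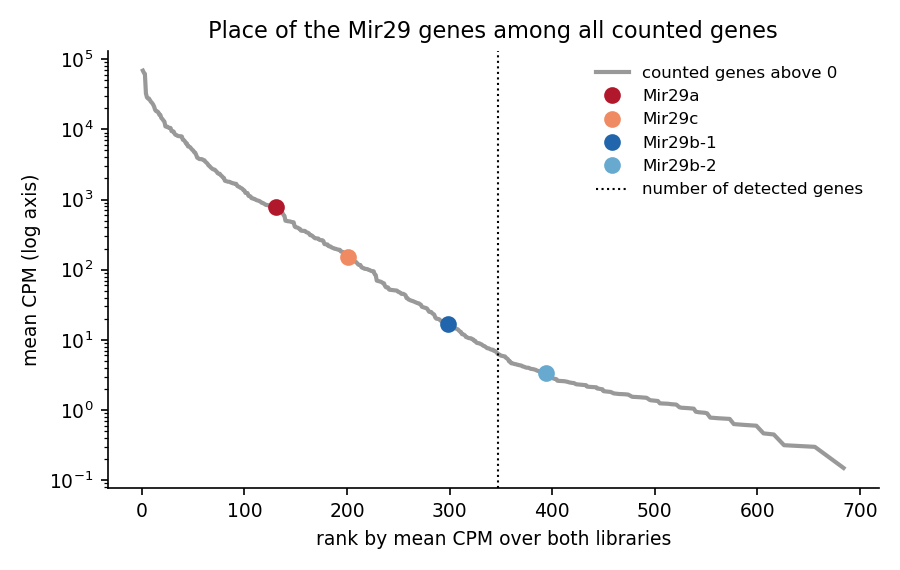
Mean CPM over both libraries (log axis) against rank for every counted gene above 0 (grey line), with the 4 Mir29 genes as coloured points and a dotted line at 347, the number of detected genes. Mir29a stands at rank 131 and Mir29c at rank 201, Mir29b-1 at rank 298 near the low end of the detected genes, and Mir29b-2 beyond it.

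The closest genes by level show where the members stand. Mir29a lay between Mir3071 at 797 ± 116 CPM and Mir203, known from epithelium, at 767 ± 82.0 CPM (SD, n = 2). Mir29c lay between Mir200a, an epithelial microRNA, at 161 ± 15.6 CPM and Mir675, which is cut from the imprinted H19 transcript, at 153 ± 15.4 CPM (SD, n = 2). Mir29b-1 lay between Mir6546 at 17.0 ± 1.74 CPM and Mir26a-1 at 16.7 ± 1.32 CPM (SD, n = 2). In each case the SD of either gene was larger than the gap between member and neighbour. With 2 libraries, no likeness of pattern between genes was computed.

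Against other microRNAs known to rise as tissues mature, Mir29a lay in the middle by gene, while the family's summed counts were far below those of the list. That list took up 9.62 ± 0.216% of the counts (SD, n = 2), and 17 of 19 counted genes were detected, 9 of them above the mean of Mir29a. Its median was 387 CPM, and Mir29a lay above 10 and Mir29c above 9 of its 19 genes. Its leading gene after Mir122 was Mir26b at 22991 and 22264 CPM in replicates 1 and 2, and Mirlet7g of the let-7 family, restrained by Lin28 in embryos, stood at 21553 and 20568 CPM. The median of the 9 let-7 genes was 130 CPM, with 6 of them below Mir29a and 5 below Mir29c. Several genes below Mir29a in this list are numbered copies, such as Mirlet7a-1, Mirlet7c-1 and Mir26a-1. Their levels, like those of the Mir29b genes, are of uniquely placed reads and not of the microRNA. The let-7 counts, carried by a few genes, summed to 40.4 times those of the Mir29 family in replicate 1 and 31.1 times in replicate 2. Mir148a, another microRNA of the mature liver, alone had 2.04 times the family's counts in replicate 1 and 1.15 times in replicate 2. These folds compare uniquely placed reads. Any reads that match several copies are missing from the Mir29 and let-7 sums, so the folds are not ratios of the microRNAs. The labels cover 1 age, so whether the Mir29 genes rise with maturation was not measured.

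Other microRNAs known from collagen, fibroblast or TGF-beta biology made up 10.8 ± 1.52% of the counts (SD, n = 2), and 21 of 24 counted genes were detected. Of the 24 genes, 11 lay above Mir29a in mean CPM and 13 below it, and the list's median was 481 CPM. By mean the highest was Mir30e, at 37299 and 19786 CPM in replicates 1 and 2, followed by Mir21a, which rises in fibrosis, at 29328 and 22464 CPM. In replicate 2 the order differed, with the smooth muscle gene Mir143 highest at 23596 CPM, against 11472 CPM in replicate 1. The mesenchymal Mir214 had 9911 and 8782 CPM, and Mir199b 556 and 413 CPM, the latter between Mir29a and Mir29c. The list's summed counts were 141 times those of the Mir29 family in replicate 1 and 91.7 times in replicate 2. Several genes of this list below Mir29a are numbered copies, such as Mir199a-1, Mir30c-1 and Mir133a-1. Their levels, the list's median and the sums compared here are of uniquely placed reads and not of the microRNAs. Messenger RNA was not measured, so no collagen transcript could be set beside these levels.

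Markers of single cell types moved between the pools as well. The endothelial Mir126a made up 5.74% of the counts in replicate 1 and 8.01% in replicate 2, and the mesenchymal and smooth muscle list, led by Mir143, 2.25% and 3.34% with 6 of 6 genes detected. Without Mir143 that list held 1.11% and 0.976%, and 3 of its other 5 genes had a lower TMM-scaled level in replicate 2. The erythroid list, led by Mir451a, held 0.833% and 1.14%, and the hepatocyte list 3.48% and 3.81%. Of the 6 hepatocyte genes, Mir122 and Mir192 were the higher in replicate 2 and the other 4 the lower. The leukocyte list was the lower in replicate 2, with 1.04% and 0.812%. Its leading gene Mir223 did not fall, with 4934 and 5087 CPM, while the other 3 of its 4 genes had a lower TMM-scaled level in replicate 2. Markers of neural tissue held 0.0406% and 0.0265%, led by Mir128-1, and those of striated muscle 0.0884% and 0.0797%, led by Mir208b. Of these lists, 3 of 9 neural genes and 3 of 8 striated muscle genes were at 0 in both libraries. The genes at 0 are numbered copies, such as Mir124a-1 and Mir133a-1. Reads that match several places were assigned to no gene, so a 0 here does not show that the microRNA was absent. The Mir29 family, with 0.0846% and 0.106%, was higher in replicate 2, as were Mir126a and the summed shares of the mesenchymal (through Mir143), erythroid and hepatocyte lists, and the part of cell makeup in its levels was not tested. In whole livers, more cells of a type and more RNA per cell cannot be told apart.

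The pools were then compared gene by gene with an exact binomial test, two-sided, against the split expected from library sizes scaled by the trimmed mean of M values (TMM). P-values were adjusted by Benjamini-Hochberg over the 454 genes of at least 10 summed counts. Calls needed both a 2-fold difference and an adjusted p below 0.05. The test knows counting noise only and compares these libraries, not conditions. Of the 454 genes 33 (7.27%) were called, 22 (4.85%) higher in replicate 2 and 11 (2.42%) higher in replicate 1, and 0 of the 4 members were among them. An adjusted p under 0.05 without regard to fold was reached by 223 genes (49.1%) and by 2 of the members, Mir29a and Mir29c.

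Mir29a was 1.27-fold higher in replicate 2, with a log2 ratio of 0.35 (interval 0.25 to 0.45) and an adjusted p of 7.48e-12 by the exact binomial test. Mir29c was 1.68-fold higher in replicate 2, with a log2 ratio of 0.75 (0.53 to 0.97) and an adjusted p of 9.52e-11 by the same exact test. These differences exceeded counting noise, but 59.3% of the tested genes had a larger absolute log2 ratio than Mir29a and 27.1% a larger one than Mir29c. Mir29b-1 had a log2 ratio of -0.42 (-1.21 to 0.27) with an adjusted p of 0.359 by the exact test, and Mir29b-2 one of -1.75 (-5.18 to 0.03) with an adjusted p of 0.0946. For the Mir29b genes the depth did not show a difference in either direction. Allowing for spread between pools, with edgeR's exact test and a biological coefficient of variation set to 0.2 by assumption, the adjusted p was 0.799 for Mir29a, 0.509 for Mir29c, 0.833 for Mir29b-1 and 0.535 for Mir29b-2. That test called 1 of the 454 genes (0.22%), Mir6538 with 14 and 46 counts, named here after its value was seen, and 51 genes had an unadjusted p under 0.05.

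**Figure D3:**
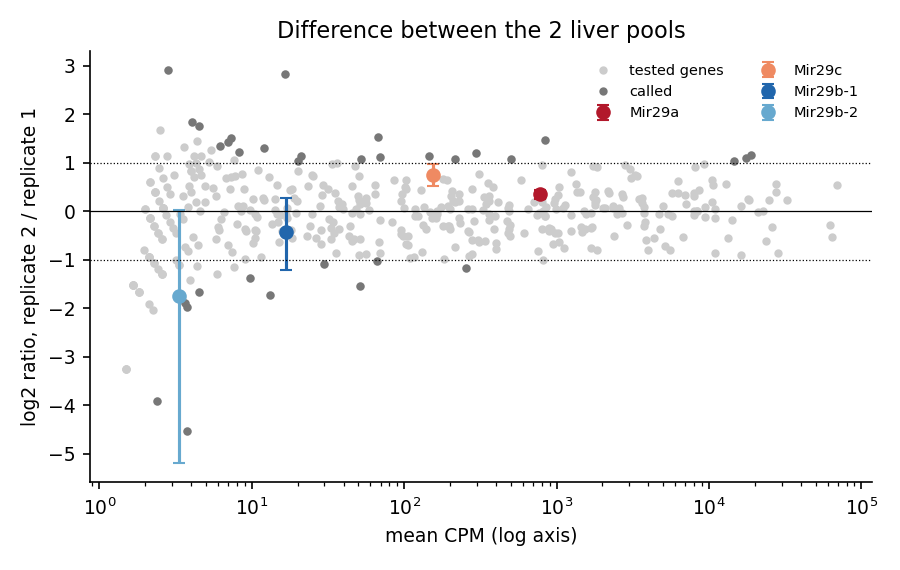
Log2 ratio of replicate 2 over replicate 1 against mean CPM (log axis) for the 454 tested genes (light grey), those called (dark grey) and the 4 Mir29 genes with their 95% exact binomial intervals as bars; dotted lines mark a 2-fold difference. Mir29a at 0.35 and Mir29c at 0.75 lie above 0 and inside the dotted lines, and the intervals of Mir29b-1 and Mir29b-2 include 0.

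Against the 7.27% called over all tested genes, the fixed lists held few calls in number. Of the matrix and fibrosis list 2 of 21 tested genes were called, Mir143 and Mir133b, both higher in replicate 2, and of the maturation list 1 of 19, Mir194-1, which was higher in replicate 1. The median log2 ratio was -0.06 for the former and -0.08 for the latter, against 0.01 for all 454 tested genes. Among the marker lists, 1 gene was called of 6 tested hepatocyte genes (Mir194-1), of 3 erythroid (Mir144), of 6 mesenchymal (Mir143) and of 5 striated muscle genes (Mir133b), and 0 of 1 endothelial, 4 leukocyte and 4 neural genes. With so few genes a list, 1 call is already a larger share than that over all genes. Mir144, an erythroid gene, and Mir133b were higher in replicate 2. In replicates 1 and 2, Mir133b was called on only 13 and 17 counts, and Mir194-1 on 48 and 8.

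The Mir29b genes were set beside other genes that the annotation counts as numbered copies. In the RefSeq table, 47 counted genes from 25 such sets shared 1 mature arm with another copy and kept the other arm to themselves, the arrangement of Mir29b-1 and Mir29b-2. Of these, 32 (68.1%) were detected, and the median was 33.2 CPM. Mir29b-1 lay below this median with 17 genes under it, and Mir29b-2 had 8 genes under it. The class reached from 0 to 8276 CPM, led by Mir92-1 of the Mir17 cluster at 8411 and 8141 CPM in replicates 1 and 2. In the 20 sets with exactly 2 counted copies of this arrangement, the Mir29b pair ranked 18 by the summed mean of its copies, 20.1 CPM. Where every listed arm was identical between copies, 3 of 24 genes (12.5%) were detected and 19 had 0 counts in both libraries. Over all 1973 counted genes, 17.6% were detected and 1249 had 0 counts in both libraries. Whether shared arms bear on detection was not tested. The remaining 26 genes with numbered copies could not be classed, because the table lists too few of their arms.

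**Figure D4:**
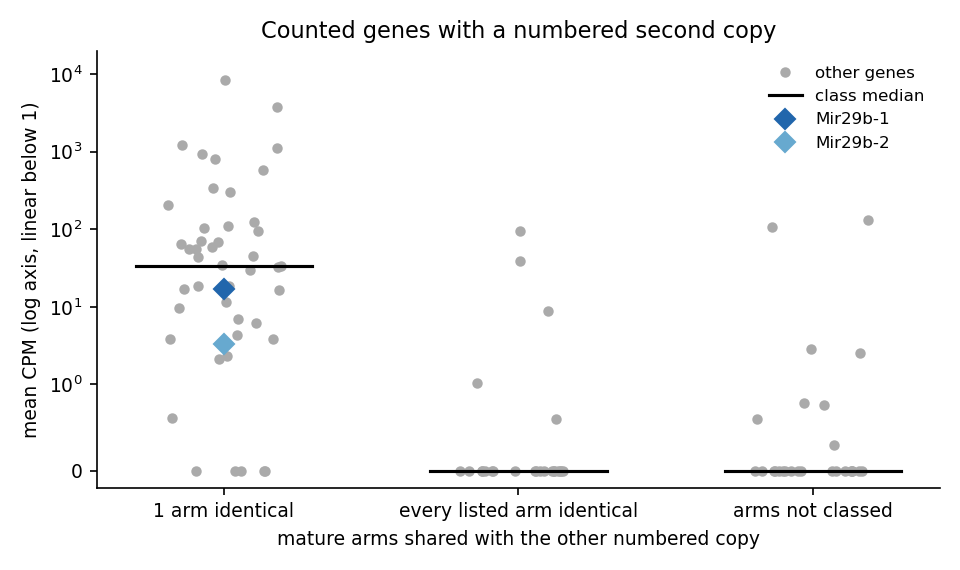
Mean CPM (log axis, linear below 1) of counted genes with a numbered second copy, grouped by the mature arms that the copy shares in the RefSeq table; bars are class medians and diamonds the Mir29b genes. Genes with 1 identical arm have a median of 33.2 CPM, with Mir29b-1 at 16.8 and Mir29b-2 at 3.32 CPM below it, and most genes with every listed arm identical sit at 0.

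Reads on the strand opposite to the gene were at 0 for all 4 members in both libraries, so counting without regard to strand left their counts as they were. In particular, 0 reads were counted at the chromosome 1 pair in the direction of Cd46 transcription.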

How the data were processed

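Small RNA counts of 2 libraries, the labels' biological replicates 1 and 2 of 1 group, were analysed. The deposited values are whole-number read counts per microRNA gene, not normalised, aligned to mm10 and counted over GENCODE M4, per the text deposited with each sample. No aligner, counter or trimming step is named (not given in the sources used here). The 4 summary classes that name no gene, 73.8% and 71.0% of reads in replicates 1 and 2, were left out of library sizes and tests. The column for the strand of the gene was read from the layout of the values.

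CPM, exact binomial intervals and sums were computed with Python 3.11.15, scipy 1.17.1 and pandas 2.3.3. Symbols and places came from GENCODE M21 (same assembly) by Ensembl identifier without version, which matched 1894 of 1973 genes, and sequences from RefSeq GRCm38.p6. The libraries were compared by an exact binomial test with TMM from edgeR 4.0.16 (R 4.3.3), with 0.5 added to counts for ratios, and DESeq2 1.42.0 supplied alternative size factors. The binomial procedure was tested on simulated counts that held counting noise only, so that run does not bear on spread between pools. Named were the members, the detected genes next above and below each by mean CPM, and the most abundant detected gene of each list (hepatocyte, endothelial, erythroid, leukocyte, mesenchymal, neural and striated muscle markers, matrix and fibrosis, maturation, numbered copies); other genes were named after their values were seen. Members, lists and tests were chosen with earlier results of these data known. The comparisons of neighbouring pairs, single families, the mesenchymal list without Mir143 and copy sets were added after seeing the values. P-values of the exact binomial test measure only the spread in counting between these libraries. Those of edgeR's exact test add a spread between pools that was assumed and not measured.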

Additional observations from a re-analysis of the deposited data

How the results depend on the processing

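Of 54 alternative values, 52 counted as unchanged. These kept their direction and their side of the threshold, moved by less than the SD or, for the number of genes called, lay from 30 to 35. With 2 libraries, leaving 1 out always moves a mean by less than that SD. The other 2 settings changed the count of genes called between the pools from 33: requiring 100 summed counts left 16, with fewer genes tested, and edgeR's exact test at a biological coefficient of variation assumed to be 0.2 left 1. No member was called under any alternative run with the binomial test. Mir29b-1 and Mir29b-2 have under 100 summed counts, so that filter gave no value for them. Without replicate 1 the mean of Mir29b-2 went from 3.32 to 1.26 CPM, and without replicate 2 to 5.38 CPM, so its level depends on 1 library. Counting without regard to strand gave 866 CPM for the family in place of 955, through the larger total, and leaving Mir126a out of the total gave 1027 CPM. No paired analysis was possible because both libraries form a single group. Depth limits the Mir29b genes most, whose counts in replicate 2 were 22 and 2.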
